A study of Mus musculus with 20 samples.

Results

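A set of 9 genes of the naive T cell programme, out of 49315 gene IDs in the count table, was followed in mouse CD4+ T cells that have or lack Pcbp2, a poly(C)-binding protein of RNA: Il7r, S1pr1, Klf2, Tcf7, Lef1, Foxo1, Bach2, Satb1 and Foxp1. They were chosen by symbol, as genes known for holding T cells in the naive state and for their traffic through lymph nodes, and all 9 passed the filter on low counts that left 28082 genes to test. The cells were CD4+CD25- splenic T effector cells, sorted by flow cytometry to more than 99% purity per the labels. Conditional knockouts (CKO) carried a floxed Pcbp2 gene and the CD4cre transgene, in which the Cd4 promoter drives Cre recombinase from a late stage of thymic development, and the controls (CTL) were littermates with the floxed gene and no Cre named in the label. Cells were unstimulated (0 h) or had spent 6 h with CD3/CD28 activator beads, which engage the T cell receptor complex together with costimulation. There were 6 CTL and 6 CKO libraries at 0 h, 5 CTL and 3 CKO libraries at 6 h, and ages were not given. A 6 h culture without beads was not analysed here, so the effect of the beads and that of 6 h in culture cannot be told apart. The labels do not tie libraries to animals, and the p-values therefore measure the spread between these libraries.

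A naive CD4+ T cell is a resting cell that survives on interleukin 7 and circulates between blood and lymphoid organs. The transcription factor FOXO1 promotes the gene for the interleukin 7 receptor and the gene for KLF2, and KLF2 in turn promotes S1PR1, the receptor for sphingosine 1-phosphate that lets T cells leave lymph nodes. TCF-1 (from Tcf7) and LEF-1 bind the same DNA motif and act in T cell development and in the upkeep of naive and memory cells, while BACH2, FOXP1 and SATB1 restrain effector programmes or organise chromatin in T cells. Signalling from the antigen receptor through PI3K and AKT moves FOXO1 out of the nucleus.

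Promoter windows, 250 bases before to 50 after a transcription start, were taken from RefSeq on GRCm38.p6 for 8 of the 9 genes (the other is S1pr1), which have 18 such windows. Both strands were searched for GTAAACA (FOXO factors), CTTTGA (TCF-1 and LEF-1), CCNCNCCC (KLF factors), TGANTCA (BACH or AP-1 factors) and CCGGAAG (ETS factors), and matches of different motifs did not overlap in any window. The FOXO motif lay in 1 of the 18 windows, at Tcf7, against 3.6% of all 32851 windows. The TCF-1 and LEF-1 motif lay in 3 of 18, at Lef1, Bach2 and Foxp1, against 16% of all windows. The ETS motif lay in 2 of 18 (8.9% of all), the BACH or AP-1 motif in 0 of 18 (7.8% of all), and the KLF motif, which many GC-rich starts hold, in 14 of 18 (49.5% of all). The windows with a KLF match belong to 6 of the 8 genes. Satb1 has 5 of the 18 windows and Lef1 has 4, and some windows of the same gene overlap, as at Lef1, so the 18 are not separate sequences. A match is a run of letters and not a measured binding site. The 4 windows below are from Tcf7 and Lef1, which fell together after 6 h in CTL, from Bach2, which rose, and from Il7r, the gene with the clearest difference between genotypes. Bach2 and Il7r have 1 window each. Tcf7 has 2 and Lef1 has 4, and the one shown for each was picked because it holds the FOXO match or the TCF-1 and LEF-1 matches. The Lef1 window shown is at the annotated start farthest into the gene, 46.0 kb from the first. The Bach2 window also lies inside its gene, which begins at 32238804 on the plus strand. So does the Foxp1 window with the TCF-1 and LEF-1 match (99266466-99266765), in a gene that begins at 99522721 on the minus strand. None of the 3 windows with this motif is therefore at the outermost start of its gene. Capitals mark FOXO matches (GTAAACA) and TCF-1 and LEF-1 matches (TCAAAG, the reverse complement of CTTTGA).
Tcf7, chr11:52282546-52282845, minus strand: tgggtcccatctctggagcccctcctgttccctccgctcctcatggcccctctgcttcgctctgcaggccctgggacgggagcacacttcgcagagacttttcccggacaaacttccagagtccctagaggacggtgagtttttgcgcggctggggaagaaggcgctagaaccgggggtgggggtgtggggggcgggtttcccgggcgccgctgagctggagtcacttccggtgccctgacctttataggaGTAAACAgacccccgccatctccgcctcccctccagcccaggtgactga
Lef1, chr3:131156044-131156343, plus strand: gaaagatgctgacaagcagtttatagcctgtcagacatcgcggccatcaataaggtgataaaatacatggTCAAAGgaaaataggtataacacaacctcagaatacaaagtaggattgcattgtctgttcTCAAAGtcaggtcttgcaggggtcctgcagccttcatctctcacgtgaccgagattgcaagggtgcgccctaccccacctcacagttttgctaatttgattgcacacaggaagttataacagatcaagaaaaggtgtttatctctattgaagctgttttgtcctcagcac
Bach2, chr4:32417185-32417484, plus strand: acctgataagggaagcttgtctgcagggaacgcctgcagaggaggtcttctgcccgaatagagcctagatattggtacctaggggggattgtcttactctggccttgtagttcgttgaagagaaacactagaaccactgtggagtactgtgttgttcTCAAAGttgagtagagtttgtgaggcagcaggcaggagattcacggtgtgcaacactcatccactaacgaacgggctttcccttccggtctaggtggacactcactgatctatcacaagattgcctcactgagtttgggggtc
Il7r, chr15:9529827-9530126, minus strand: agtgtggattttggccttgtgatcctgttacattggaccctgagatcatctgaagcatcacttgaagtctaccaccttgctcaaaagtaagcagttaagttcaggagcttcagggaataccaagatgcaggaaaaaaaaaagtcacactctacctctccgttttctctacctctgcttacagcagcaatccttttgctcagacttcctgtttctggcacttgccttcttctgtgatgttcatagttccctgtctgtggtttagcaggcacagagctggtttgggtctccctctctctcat
The Tcf7 window holds its single FOXO match just after the start, the Lef1 window shown holds 2 matches to the motif that LEF-1 itself can bind, and the Il7r window holds no match to any of the 5 motifs. The other 3 Lef1 windows, which include those at the first annotated starts, and the other Tcf7 window hold KLF matches only.

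The libraries held between 62.4 M and 85.6 M counts, except the CTL library 4.24 at 6 h, which held 26.4 M (the numbers are those in the titles). That library stood apart in several of the 9 genes, and several results below are given with and without it. Pcbp2 measured 333 ± 46.9 CPM (counts per library size after TMM scaling, mean ± SD) in CTL and 17.0 ± 3.39 in CKO at 0 h, and 322 ± 34.5 and 8.72 ± 2.24 at 6 h. All 6 CKO libraries at 0 h are labelled male, but 2 of them, 4.24 and 5.6, held 1160 and 1353 CPM of Xist, an RNA of the inactive X chromosome, and under 1 CPM of the Y-linked gene Ddx3y. Labelled female are the CTL libraries 10.28, 4.24 and 5.6 at 0 h and 10.28 and 4.24 at 6 h. So is the CKO library 5.6 at 6 h, with 812.6 CPM of Xist. The labelled sex is therefore not balanced between genotypes at 0 h. The T cell label held: summed CPM of 10 T cell genes lay between 5500 and 7560 at 0 h and between 2370 and 3430 at 6 h, with Cd4 at 1110 ± 157 CPM in CTL at 0 h against 16.4 ± 23.6 for Cd8a. Summed CPM of 10 B cell genes lay between 54.1 and 390 at 0 h and between 19.8 and 98.5 at 6 h, and that of 11 myeloid genes between 46.2 and 184 and between 10.6 and 54.8. The part of these lower sums in the changes with time was not tested. Because these are bulk samples, fewer cells of a type and less RNA per cell cannot be told apart.

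In unstimulated CTL cells the 9 genes differed widely in level. Per kilobase of exon, Tcf7 was highest at 683 ± 82.9 CPM per kb (SD, n = 6). It was followed by Klf2 at 255 ± 49.8, S1pr1 at 178 ± 28.3 and Il7r at 106 ± 8.04 CPM per kb. Lef1 (53.7 ± 5.87), Foxo1 (47.3 ± 5.11) and Satb1 (40.7 ± 2.84 CPM per kb) formed a middle group, and Foxp1 (23.9 ± 0.988) and Bach2 (19 ± 1.45) were lowest. Each gene exceeded the next one in this order in 6 of 6 libraries, although the ranges over libraries overlapped for Klf2 and S1pr1, for Lef1 and Foxo1, and for Foxo1 and Satb1. After 6 h the order changed in the lower part: Foxo1 was last in both genotypes, at 17.9 ± 2.35 CPM per kb in CTL and 21.8 ± 4.56 in CKO, and Satb1 was the fifth, at 60.6 ± 8.3 and 64.7 ± 3.15. The 9 genes together summed to 5473 ± 469 CPM in CTL and 4886 ± 554 in CKO at 0 h, and to 4535 ± 515 and 5076 ± 864 CPM at 6 h. Exon length here is the union of all annotated exons of a gene, 19027 bases for Satb1, and not the length of an expressed transcript. The order per kilobase rests on it. In CPM without length, Satb1 at 774 ± 54.0 came second to Tcf7 at 1790 ± 218 in CTL at 0 h.

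**Figure D1:**
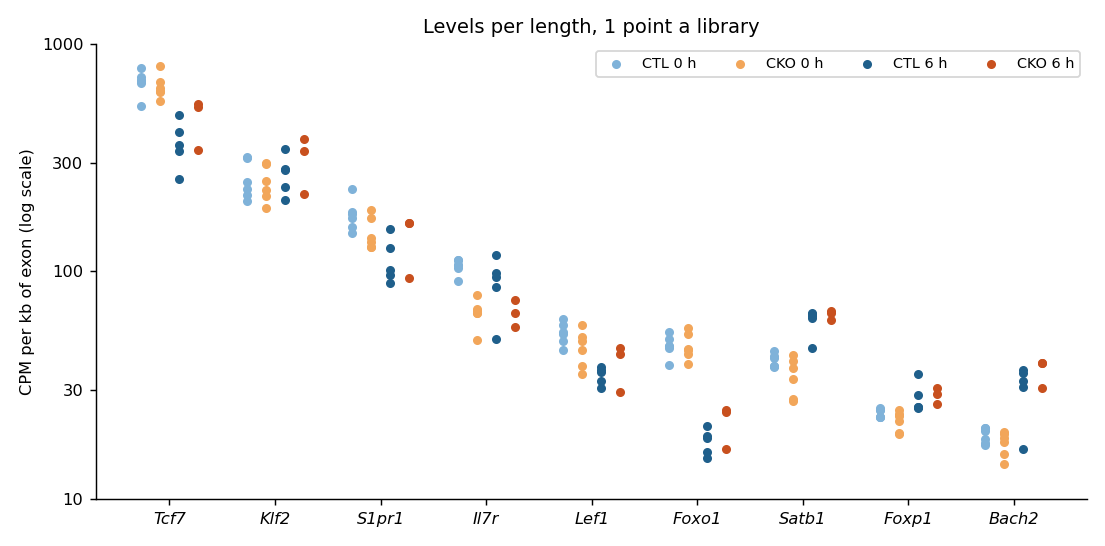
Level of each of the 9 genes in CPM per kb of exon (log axis) in the 4 groups; each point is 1 library. Tcf7 has the highest mean in every group, and the mean of Foxo1 goes from 47.3 CPM per kb at 0 h to 17.9 at 6 h in CTL, the lowest of the 9.

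In CTL, 7 of the 9 genes passed the test between 0 h and 6 h, 4 lower and 3 higher, where 63.4% of all genes tested passed (21.7% lower, 41.6% higher) and 55.9% of the 14189 genes with a mean of at least 1 CPM (38.9% lower, 16.9% higher). All 9 genes belong to this second class, in which falls outnumbered rises, the reverse of the split over all genes. The members' share is near the background, and the paragraphs below give the direction and size for each gene. In CKO, 4 of 9 passed, 1 lower and 3 higher, where 32.8% of all genes passed. The groups did not overlap for 4 of the 9 genes in CTL and 5 in CKO, as for 29.9% and 47.0% of all genes. Of all calls 65.7% in CTL and 59.9% in CKO were higher at 6 h, and 79.4% and 74.7% with upper-quartile factors, under which the 7 members called in CTL and the 4 in CKO kept their direction and their call. In CKO, 13.1% of all genes passed lower and 19.6% higher, but 22.6% lower and 10.3% higher among genes of at least 1 CPM. The median log2 change of the 9 genes was -0.26 in CTL and 0.04 in CKO, beside 0.31 and 0.12 over all genes tested and -0.20 and -0.12 over genes of at least 1 CPM. Adjusted p-values are from the quasi-likelihood test of edgeR with Benjamini-Hochberg adjustment over all 28082 genes, and a gene is said to rise or fall where this value is under 0.05. Beside a log2 fold change, ± gives the standard error.

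Foxo1 (ENSMUSG00000044167, chromosome 3, 52268336-52353221 on GRCm38) encodes the forkhead factor at the head of this programme and had the largest change of the 9 in CTL. In CTL it ran from 337.4 to 470.0 CPM at 0 h (median 408.2), and measured 139.1, 164.7, 160.2, 181.2 and 130.5 CPM in the 5 libraries at 6 h. In CKO it ran from 340.5 to 486.9 CPM at 0 h (median 392.7), and measured 143.1, 208.8 and 214.1 CPM at 6 h. Every 6 h library lay below every 0 h library of its genotype. The log2 change was -1.40 ± 0.13 in CTL (adjusted p = 1.2e-07), a 2.65-fold fall, and -1.11 ± 0.16 in CKO (adjusted p = 6.54e-05), a 2.15-fold fall. Between libraries with the same number, Foxo1 was lower at 6 h in 5 of 5 CTL pairs and 3 of 3 CKO pairs.

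Tcf7 (ENSMUSG00000000782, chromosome 11, 52252371-52283014) and Lef1 (ENSMUSG00000027985, chromosome 3, 131110471-131224356), the pair of related HMG-box factors, both fell in CTL. Tcf7 ran from 1405 to 2067 CPM in CTL at 0 h (median 1819) and from 668.5 to 1278 CPM at 6 h (median 939.6), without overlap, a log2 change of -0.91 ± 0.16 (adjusted p = 8.82e-05). Without the CTL library 4.24 at 6 h, the lowest, the change of Tcf7 was -0.78 (adjusted p = 0.000253). Lef1 ran from 398.2 to 543.6 CPM in CTL at 0 h and measured 291.0, 323.3, 332.8, 318.6 and 270.3 CPM at 6 h, a log2 change of -0.62 ± 0.14 (adjusted p = 0.000742), again without overlap. In CKO neither gene passed. Tcf7 measured 893.1, 1386 and 1432 CPM at 6 h, all below the lowest of 1481 CPM at 0 h, with a log2 change of -0.41 ± 0.19 (adjusted p = 0.109), and Lef1 changed by -0.21 ± 0.17 (adjusted p = 0.354). The CKO library 11.18 at 6 h was the lowest for both genes, and without it the CKO values were -0.16 for Tcf7 and close to 0 for Lef1.

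S1pr1 (ENSMUSG00000045092, chromosome 3, 115710433-115715072), the egress receptor, fell in CTL. It ran from 451.3 to 698.6 CPM at 0 h (median 533.4) and measured 307.7, 271.3, 388.1, 466.1 and 293.9 CPM at 6 h, and the highest of these overlapped the 0 h range. The log2 change was -0.67 ± 0.17 (adjusted p = 0.00239), a 1.59-fold fall, with 5 of 5 same-numbered pairs lower, and -0.58 (adjusted p = 0.00996) without library 4.24. In CKO, S1pr1 measured 283.8, 498.1 and 497.9 CPM at 6 h against 389.3 to 565.4 CPM at 0 h, a log2 change of -0.03 ± 0.21 (adjusted p = 0.919). This CKO value turned to 0.25 without library 11.18 and lay between -0.25 and 0.14 in the other settings, so it has no fixed sign.

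Klf2 (ENSMUSG00000055148, chromosome 8, 72319033-72321656), the factor that drives S1pr1 in quiescent T cells, did not pass in either genotype. In CTL it ran from 375.1 to 585.9 CPM at 0 h and from 382.0 to 639.4 CPM at 6 h, a log2 change of 0.09 ± 0.17 (adjusted p = 0.659), with the 2 groups overlapping almost wholly. In CKO it measured 405.6, 625.7 and 706.5 CPM at 6 h against 352.4 to 552.0 CPM at 0 h, with a log2 change of 0.29 ± 0.20 (adjusted p = 0.297).

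Il7r (ENSMUSG00000003882, chromosome 15, 9505788-9530176), the alpha chain of the interleukin 7 receptor, did not pass with time in either genotype. It measured 459.1, 236.5, 443.0, 552.5 and 396.7 CPM in CTL at 6 h, where library 4.24 was far below the other 4. The log2 change was -0.26 ± 0.16 in CTL (adjusted p = 0.16), or -0.07 without that library (adjusted p = 0.617), and 0.04 ± 0.19 in CKO (adjusted p = 0.887).

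Bach2, Satb1 and Foxp1 were the genes that rose. Bach2 (ENSMUSG00000040270, chromosome 4, 32238804-32586108), a repressor of effector genes, ran from 171.8 to 204.6 CPM in CTL at 0 h and measured 326.8, 307.2, 357.3 and 364.8 CPM in 4 of the 5 libraries at 6 h and 164.3 CPM in library 4.24. The log2 change was 0.66 ± 0.15 in CTL (adjusted p = 0.000955) and 0.85 (adjusted p = 2.11e-06) without that library. In CKO the values of 306.7, 391.6 and 392.1 CPM at 6 h stood clear of the 141.6 to 195.4 CPM at 0 h, a log2 change of 1.12 ± 0.18 (adjusted p = 0.000135), a 2.18-fold rise.

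Satb1 (ENSMUSG00000023927, chromosome 17, 51736187-51833290), a chromatin organiser, ran from 723.3 to 853.5 CPM in CTL at 0 h. At 6 h the CTL libraries held 1251, 873.0, 1233, 1188 and 1216 CPM, and the low one is again 4.24. The log2 change was 0.57 ± 0.13 (adjusted p = 0.000938) in CTL, 0.67 without library 4.24, and 0.92 ± 0.15 (adjusted p = 0.00023) in CKO. In CKO the groups did not overlap, with 512.0 to 819.6 CPM at 0 h and 1164, 1279 and 1251 CPM at 6 h.

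Foxp1 (ENSMUSG00000030067, chromosome 6, 98925338-99522721), a forkhead factor of naive T cell quiescence, rose by the smallest amounts. In CTL it ran from 315.4 to 344.9 CPM at 0 h and measured 350.4, 486.2, 344.8, 348.0 and 394.3 CPM at 6 h, a log2 change of 0.24 ± 0.10 (adjusted p = 0.04). This call rested on the choice of fit: the change was 0.15 (adjusted p = 0.108) without library 4.24, and the adjusted p was 0.0713 with the number as a block. In CKO the change was 0.33 ± 0.12 (adjusted p = 0.0347), with 359.4, 397.6 and 423.1 CPM at 6 h above all 0 h values of 265.0 to 337.1 CPM, and the adjusted p was 0.0691 with the number as a block.

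**Figure D2:**
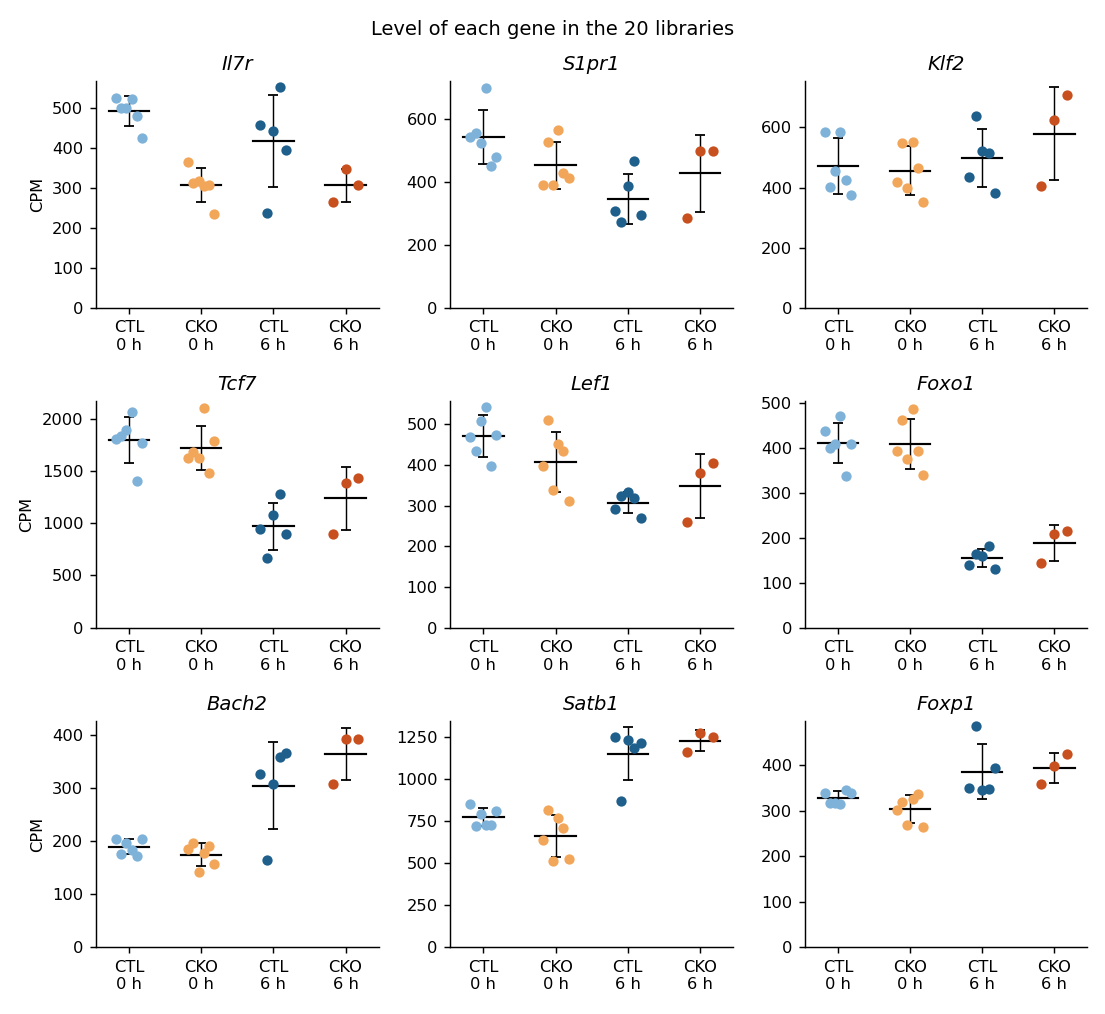
CPM of each of the 9 genes in every library, 1 panel a gene, with the 4 groups on the horizontal axis; points are libraries, horizontal lines are group means and error bars are SDs. Il7r in CKO at 0 h (234.2 to 365.9 CPM) lies below all CTL libraries at 0 h (424.5 to 526.1 CPM), and Foxo1 is lower at 6 h in both genotypes.

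**Figure D3:**
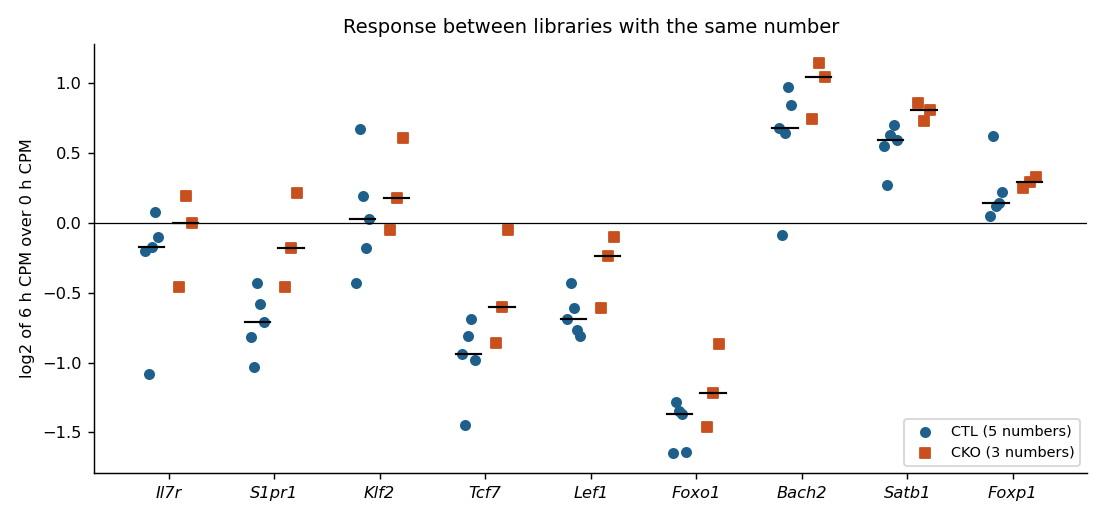
Log2 ratio of 6 h to 0 h CPM between libraries with the same number, 5 pairs in CTL and 3 in CKO, for each gene; horizontal bars are medians. Foxo1 lies between -1.65 and -0.87 in all 8 pairs, whereas Bach2 is positive in all but 1 CTL pair (-0.09, library 4.24).

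Between genotypes, 0 of the 9 genes passed at 0 h and 0 at 6 h, where 0.424% and 0.292% of all genes passed. At an unadjusted p under 0.05 there was 1 gene of the 9 at each time, Il7r in both cases. The median log2 difference of the 9 genes, CKO against CTL, was -0.20 at 0 h and 0.22 at 6 h, beside 0.05 and -0.29 over all genes tested and -0.01 and 0.07 over genes of at least 1 CPM.

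Il7r at 0 h was the member nearest to a call. The 6 CTL libraries held 526.1, 500.0, 499.8, 524.5, 480.7 and 424.5 CPM, and the 6 CKO libraries held 365.9, 311.7, 317.9, 305.6, 307.3 and 234.2 CPM. The highest CKO library lay below the lowest CTL library, an absence of overlap that 1.93% of all genes tested shared. The log2 difference was -0.74 ± 0.17, so the CKO level was 59.7% of that of CTL, with an unadjusted p of 0.000238 and an adjusted p of 0.0526, which misses the threshold of 0.05. In the 5 same-numbered pairs the log2 ratio lay between -0.86 and -0.65. The call followed the fit: of 13 other settings 9 called it, with adjusted p from 0.000881 to 0.178 over all 13, and the log2 difference stayed between -0.77 and -0.65. It passed with DESeq2 (adjusted p = 0.00111) and with the sex that Xist shows instead of the labelled one (adjusted p = 0.0335), and did not pass with the number as a block (0.0532), nor without the 2 CKO libraries whose Xist level goes against their label (0.178). Of the 20 fits that leave out 1 library, 2 called it (without the CTL libraries 4.24 or 10.28 at 6 h, adjusted p = 0.00474 and 0.047), and the highest adjusted p was 0.239, without the CKO library 9.20 at 0 h.

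Summed CPM of 7 regulatory T cell genes ran from 362 to 661 in CTL and from 465 to 1330 in CKO at 0 h, all 7 were higher in CKO by fitted value, and 1 passed. Foxp3, the factor that defines these cells, measured 47.7 ± 12.8 CPM in CTL and 71.1 ± 24.5 in CKO at 0 h. Their part in the Il7r difference was not tested. At 6 h the Il7r difference was -0.44 ± 0.19 (adjusted p = 0.379), with 265.3, 348.9 and 307.7 CPM in CKO overlapping the CTL range at library 4.24 alone, and -0.60 (adjusted p = 0.0624) without that library. The same 7 genes summed to 391 to 563 CPM in CTL and 569 to 821 CPM in CKO at 6 h, and 2 passed. The 7 include Il2ra, which measured 16.2 ± 5.57 CPM at 0 h and 176 ± 91.3 at 6 h in CTL. In CKO it measured 23.5 ± 8.6 and 194 ± 101 CPM. The sums at 6 h therefore cannot be read as a measure of regulatory T cells alone. Foxp3 at 6 h measured 49.1 ± 11.5 CPM in CTL (37.4 to 62.3) and 120 ± 23.5 CPM in CKO (93.4 to 138).

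The other 8 genes had adjusted p between 0.733 and 0.993 at 0 h and between 0.402 and 0.821 at 6 h. At 0 h S1pr1 differed most among them, at -0.32 ± 0.18, followed by Satb1 at -0.26 ± 0.14 and Lef1 at -0.23 ± 0.14, while Foxo1 (-0.01 ± 0.13) and Klf2 (0.03 ± 0.18) differed least. At 6 h the differences of these 8 genes were positive, from 0.04 ± 0.12 for Foxp1 to 0.36 ± 0.18 for Tcf7, and none passed. The change of response between genotypes (the interaction) was positive for all 9 genes, from 0.09 ± 0.15 for Foxp1 to 0.63 ± 0.27 for S1pr1. Their median was 0.35, beside -0.27 over all genes tested and 0.085 over genes of at least 1 CPM. Positive values were not particular to the 9. Among the lists of relatives described below, they were found for 17 of 17 PI3K and AKT genes and 23 of 26 quiescence and naive markers, but for 4 of 10 other KLF factors. The interaction passed for 0 of the 9 genes and for 0 of all genes tested with edgeR and with DESeq2. Of the 9, 1 gene, S1pr1, had an unadjusted p under 0.05 (adjusted p = 0.465 with edgeR). A smaller response in CKO than in CTL was therefore not shown for Tcf7, Lef1 or S1pr1, although these passed in CTL and not in CKO.

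**Figure D4:**
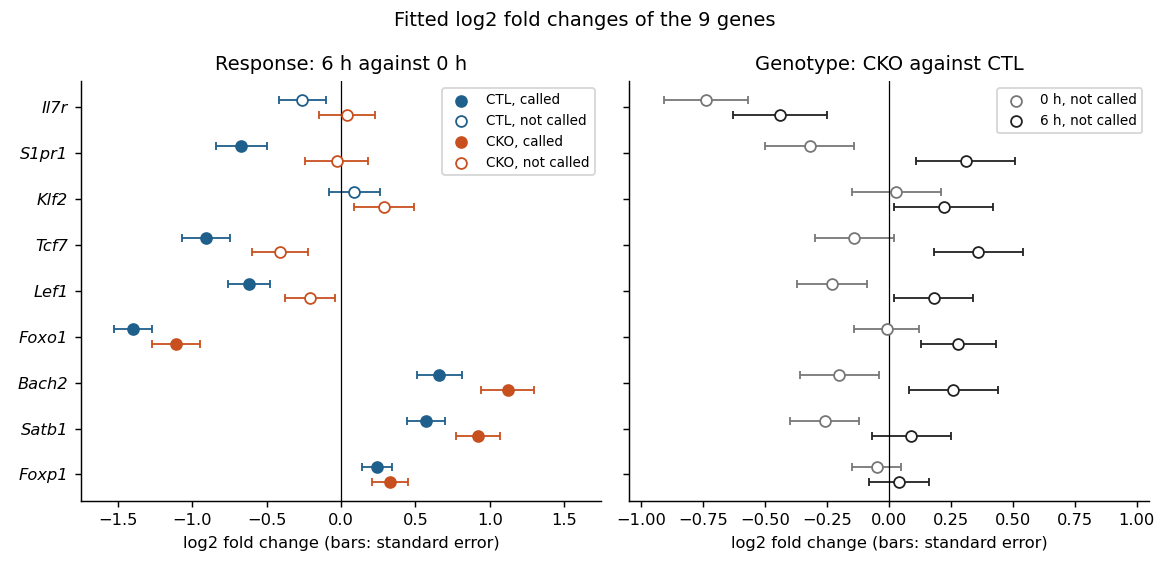
Fitted log2 fold changes of the 9 genes with standard errors, the response to 6 h with beads on the left and the genotype difference on the right; filled points passed at an adjusted p of 0.05. On the left Foxo1 lies lowest (-1.40 in CTL) and Bach2 highest (1.12 in CKO), and on the right no point is filled.

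Relatives and partners of the 9 genes were read from lists. In the homing and egress list of 18 genes, 2 rose and 11 fell in CTL, with a median log2 change of -0.68 beside 0.31 over all genes and -0.20 over genes of at least 1 CPM. Nearly all genes of these lists are in that class, where 38.9% fell and 16.9% rose in CTL and 22.6% fell and 10.3% rose in CKO, and the counts of each list stand beside those shares. They are a description, since the lists were not tested as sets. Cd69, whose product removes S1PR1 from the cell surface, rose by 2.56 ± 0.25 (adjusted p = 1.76e-07), and the integrin genes Itgb2 (-2.06 ± 0.13) and Itgb7 (-1.89 ± 0.19) fell. Ccr7, the chemokine receptor for lymph node entry, did not pass, with a log2 change of 0.13 ± 0.16 (adjusted p = 0.489). In CKO 3 rose and 7 fell, and Cd69 rose by 1.99 ± 0.27. Without the CTL library 4.24 at 6 h, 2 genes of this list rose and 9 fell in CTL (median -0.5).

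Around Il7r, the interleukin 7 signalling list of 15 genes had 8 that rose and 4 that fell in CTL and 7 and 2 in CKO, with medians of 0.35 and 0.44. Pim1, a survival kinase, rose by 2.24 ± 0.13, Socs1, a feedback inhibitor of cytokine receptors, by 2.17 ± 0.19, and Bcl2l11, which encodes the cell death factor BIM, by 1.51 ± 0.13 in CTL. In the same genotype, the list of TCF and LEF cofactors and relatives had 3 of 14 tested genes that rose and 9 that fell (median -0.80), among them the coactivators Bcl9 (-0.92 ± 0.10) and Bcl9l (-1.93 ± 0.22) and the corepressor Aes (-1.21 ± 0.14). In CKO 0 rose and 7 fell (median -0.43), led by Id3, an inhibitor of E proteins, at -1.83 ± 0.23. Leaving out the CTL library 4.24 at 6 h gave 4 genes of this list that rose and 9 that fell in CTL.

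Around Foxo1, 0 of 17 genes of the PI3K and AKT list rose and 9 fell in CTL, 5 fell in CKO, and the medians were -0.31 and -0.13. Sgk1, a kinase that phosphorylates FOXO1, fell by 1.94 ± 0.14 on the log2 scale in CTL, and Pik3r1 (-1.04 ± 0.13) and Inpp5d (-1.11 ± 0.16), a regulatory subunit and a phosphatase of the pathway, also fell. Of 16 known FOXO and KLF targets 2 rose and 5 fell in CTL, and 4 and 2 in CKO. Without the CTL library 4.24 at 6 h, 5 rose and 3 fell in CTL. The cell cycle inhibitor Cdkn2d fell in both genotypes (-1.72 ± 0.14 and -1.63 ± 0.18), and Sesn1, a stress-induced sestrin, fell in CTL (-0.94 ± 0.19). Among 12 other FOX factors tested, 2 rose and 5 fell in CTL, with Foxj1, itself linked to T cell quiescence, at 3.25 ± 0.36, Foxp2 at 5.12 ± 0.74 and Foxk1 at -1.12 ± 0.21. Foxj1 was low in CTL, at 0.175 to 0.459 CPM at 0 h and 1.2 to 6.46 CPM at 6 h (median 2.53). Foxp2 was also low in CTL, at 0.0135 to 1.13 CPM at 0 h and 1.33 to 25.9 CPM at 6 h (median 2.57). Its log2 change was 4.07 without the CTL library 4.24 at 6 h and still passed. In that fit 2 of the 12 other FOX factors rose and 4 fell in CTL.

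Among the 10 other KLF factors 5 rose and 4 fell in CTL, with Klf6 at 0.83 ± 0.12, Klf11 at 0.85 ± 0.14 and Klf9 at 1.31 ± 0.23. Without the CTL library 4.24 at 6 h, 5 rose and 2 fell. Of 8 genes for BACH1, MAF proteins (small MAF proteins pair with BACH2), their NRF relatives and heme oxygenase (Hmox1, a known BACH1 target), 3 rose and 2 fell in CTL and 4 and 1 in CKO. Without that library 5 rose and 2 fell in CTL. The small MAF genes Maff (2.62 ± 0.15 and 2.48 ± 0.17) and Mafg (0.91 ± 0.14 and 0.75 ± 0.16) rose in CTL and CKO, and Maf fell (-1.72 ± 0.28 and -1.82 ± 0.35). Of 26 other quiescence and naive markers 5 rose and 19 fell in CTL (median -0.68) and 5 and 12 in CKO (median -0.36). The CTL counts were 5 and 17 without library 4.24 at 6 h. Ramp1, Igfbp4 and Nsg2 led in CTL at -2.84 ± 0.19, -3.30 ± 0.24 and -2.0 ± 0.17. Of the 18 effector and memory markers 11 fell and 1 rose in CTL and 10 and 1 in CKO, in both of which falls also outnumbered rises among all genes of at least 1 CPM. For these markers 10 fell and 1 rose in CTL without library 4.24 at 6 h. S100a4, Ly6c2 and S100a6 led in CTL at -2.52 ± 0.27, -2.66 ± 0.35 and -1.99 ± 0.26. Of the genes of these 10 lists 0 passed between genotypes at 0 h and 1 at 6 h, where 0.761% and 0.529% of genes of at least 1 CPM passed. The gene at 6 h was Il6ra, a receptor subunit for interleukin 6, higher in CKO by 0.71 ± 0.15 (adjusted p = 0.041). It measured 195 ± 38.6 CPM in CTL and 320 ± 56.6 CPM in CKO. This call was not followed over the fits without 1 library, which called 16 to 212 of all genes in this comparison.

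The gene outside the 9 whose profile lay nearest to each member was found by the root mean square difference of log2 CPM (with 0.5 CPM added), each centred on its own mean over the 20 libraries, among 8604 genes with a mean of at least 10 CPM. For Foxo1 it was Cbr1 (a difference of 0.098) and for Tcf7 Stim1 (0.095), where the medians over all candidates were 0.615 and 0.398. For S1pr1 it was Selplg, which encodes the selectin ligand PSGL-1 (0.145), for Lef1 Nedd4l (0.128), for Klf2 Atp6v1d (0.169) and for Il7r Tyro3 (0.18). For Foxp1 it was Rbms1 (0.114), for Bach2 Mpp5 (0.159) and for Satb1 Slfn1 (0.175). Within the 9, Bach2 and Satb1 were each other's nearest member (0.174), as were S1pr1 and Lef1 (0.183) and Klf2 and Foxp1 (0.237). Il7r stood farthest from the rest, with S1pr1 nearest at 0.396. The 20 libraries fall into the same 4 groups for every gene, and these distances include the differences between groups.

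Genes that overlap a member could share its reads, since the strand setting of the counting is not given in the sources used here. Klf2, S1pr1 and Il7r overlap no other annotated gene. At the others, overlapping genes held at most 9.51% of the member's CPM in any library (5830444F18Rik, within Satb1), and the antisense genes that share exon sequence with a member reached 3.81% at Lef1 (Gm43352) and 4.03% at Bach2 (Bach2os).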

How the data were processed

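RNA was sequenced from 20 libraries of sorted mouse CD4+ T cells. The authors deposited raw counts, as whole numbers for each Ensembl gene in each library. Tools listed in the submitters' processing notes, with no role or order, are STAR 2.5.2b, Trimmomatic 0.36, Subread 1.5.2 and featureCounts, and the build is GRCm38. The annotation release and the strand setting are not stated in the labels or notes. Symbols, positions and exon lengths were taken from GENCODE M21, which matched 49056 of 49315 IDs, and 259 were not matched.

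Counts were tested with edgeR 4.0.16 (R 4.3.3): filterByExpr (minimum count 10, minimum total 15), TMM factors, and a robust quasi-likelihood fit of the 4 groups and the labelled sex over all 20 libraries, adjusted over 28082 genes. The standard error is the log2 fold change divided by the root of the F statistic. The script was tested on simulated data. Totals ran from 26.4 M to 85.6 M counts, and precision rests on the spread between libraries. Library copies were looked for in 43 pairs within groups, and none was found (chi-square over degrees of freedom from 18.7 to 271). The 9 genes, the gene lists and the rule for naming genes (up to 3 passing genes of smallest adjusted p a list, all named for the response in CTL and in part for CKO, and relatives where a gene is described) were chosen with earlier results of these data known.

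Alternatives were RLE and upper-quartile factors, no filter beyond 1 count, a mean CPM of at least 1, DESeq2 1.42.0, no sex term, sex read from Xist, the number as a block (fixed, or random with voom in limma 3.58.1), only the groups compared, leaving out the CKO libraries 4.24 and 5.6 at 0 h, and leaving out each library. A block together with sex from Xist, and sex from Xist without the CTL library 4.24 at 6 h, were added after seeing the data. Whether the numbers in the titles pair libraries was checked on deviations from group means. For 5 shared numbers, the correlation between CTL and CKO at 0 h was 0.24 to 0.70. For 5 between the times in CTL it was 0.25 to 0.53, and for 3 between the times in CKO it was 0.09, 0.21 and 0.51. Libraries with different numbers were not compared, so these values cannot decide whether the numbers pair libraries. The main fit has no term for the number, and the ratios between same-numbered libraries are a description.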

Additional observations from a re-analysis of the deposited data

Results flagged for a closer look

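Over 27 sets of 1 gene in 1 group of at least 4 libraries, 2 held a library set apart from the others by Dixon's criterion, which chance meets in about 1 of 20 sets. Both concern the CTL library 4.24 at 6 h, the library with 26.4 M counts: Bach2 at 164.3 CPM, where the other 4 lay between 307.2 and 364.8 CPM, and Satb1 at 873.0 CPM, where the other 4 lay between 1188 and 1251 CPM. The same library was also the lowest of its group for Il7r, S1pr1 and Tcf7 and the highest for Klf2 and Foxp1. The part that its depth plays in these values was not tested.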

How the results depend on the processing

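In the 20 fits that leave out 1 library and in the 13 other settings, the calls of Foxo1, Tcf7, Lef1, S1pr1, Bach2 and Satb1 in CTL and of Foxo1, Bach2 and Satb1 in CKO kept their direction and stayed past the threshold. Foxp1 in CTL passed in 6 of 20 and 6 of 13 (adjusted p up to 0.31), and in CKO in 11 of 20 and 9 of 13. Tcf7 in CKO passed in 2 of 20 and 5 of 13. The number of members called was 6 to 7 in CTL and 3 to 5 in CKO over the fits without 1 library. Between genotypes at 0 h it was 0, and 1 (Il7r) with RLE factors, upper-quartile factors, a mean CPM of at least 1, DESeq2, no sex term, sex read from Xist, only the groups compared, the replicate block with sex read from Xist, and sex from Xist without the CTL library 4.24 at 6 h. It was 0 to 1 over the fits without 1 library. At 6 h and for the interaction it was 0 throughout, and no fit of the interaction on only the groups compared exists. With the fixed replicate block and the sex label, besides Foxp1, no call of a member changed.

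Signs differed from the main ones in 49 of 1476 member values, and 0 of these were called. Between genotypes at 0 h, Klf2 was -0.05 with no sex term, -0.027 with sex from Xist, -0.051 on only the groups compared, -0.033 with sex from Xist and 19 libraries, -0.077 without the CKO libraries 4.24 and 5.6, and -0.05 to 0.17 without 1 library. There, Foxo1 was 0.009 with a mean CPM of at least 1, 0.008 with the replicate block, 0.026 with the block and sex from Xist, and -0.071 to 0.048 without 1 library, and Tcf7 was 0.006 with the block. At 6 h, Foxp1 was -0.061 with upper-quartile factors, -0.081 with a mean CPM of at least 1 and -0.01 to 0.12 without 1 library, and Satb1 was -0.007 with that filter and -0.002 with sex from Xist and 19 libraries. In CTL with time, Klf2 was -0.025 without the CKO libraries 4.24 and 5.6 and -0.045 to 0.20 without 1 library. In CKO with time, S1pr1 was 0.034 with RLE factors and with DESeq2, 0.136 with upper-quartile factors, 0.073 under the filter of 1 mean CPM and -0.22 to 0.25 without 1 library. There, Il7r was -0.029 with the block, -0.113 with the block and sex from Xist, -0.042 on only the groups compared and -0.076 to 0.17 without 1 library. The interaction of Foxp1 was -0.011 with upper-quartile factors and -0.052 under the filter of 1 mean CPM. The cause was not tested. Over all genes, the fits without 1 library called 49 to 283 genes between genotypes at 0 h (lowest without the CTL library 4.29 at 0 h, highest without 4.24 at 6 h), 16 to 212 at 6 h (without the CKO library 5.6 and the CTL library 5.13 at 6 h), 15561 to 19210 in CTL and 4848 to 12042 in CKO (lowest without the CKO library 11.18 at 6 h). The other settings called 87 to 590, 8 to 432, 7417 to 22588 and 4836 to 14132. Upper-quartile factors moved the median of all genes from 0.31 to 0.58 in CTL and from 0.12 to 0.30 in CKO. Only 3 CKO libraries at 6 h limit the precision there.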
